A study of Mus musculus with 2 samples.

Results

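Genes known from the developing inner ear, 10 in number and taken by symbol, were followed through RNA sequencing of the mouse embryonic face: Oc90, Otol1, Otog, Otoa, Tecta, Fbxo2, Lmx1a, Gbx2, Hmx2 and Hmx3. All 10 were found among the 43346 mouse gene entries, 21474 of them protein-coding, of the deposited tables. The members were chosen by the readout itself, because Oc90 differed by more than 2-fold between the libraries, so the difference of Oc90 is a description and was given no test. The material was facial prominence from embryos of the mouse strain B6NCrl at embryonic day 12.5, with males and females mixed. Replicate 1 was a pool of 120 embryos and replicate 2 a pool of 88, and the labels call them biological replicates of 1 group. No treatment, mutant or other stage was compared, and any difference below is a difference between 2 pools, without a replicate of either.

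The inner ear arises from the otic placode, which folds into a vesicle and divides into hearing and balance organs. Its epithelium secretes extracellular gels, among them the tectorial membrane of the cochlea and the otolithic membrane of the balance organs, which carries mineral grains called otoconia. Homeobox factors such as Lmx1a, Gbx2, Hmx2 and Hmx3 pattern the vesicle, and proteins such as otoconin-90, otolin, otogelin, otoancorin and alpha-tectorin build the gels. The ear forms beside the hindbrain and is not one of the facial swellings. Several of the homeobox factors are also expressed in the embryonic brain, so none of them marks the ear alone. In bulk tissue, fewer cells of a type and less RNA per cell cannot be told apart.

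Replicate 1 held 27890681 expected counts (estimated reads per gene) and replicate 2 held 39969716, and spike-in RNAs took 6.88% and 7.57% of the TPM, a unit in which counts are divided by effective gene length and scaled to a fixed total. For a gene of 1000 effective bases with no counts, up to 3 counts are allowed by counting error, equal to 0.172 TPM in replicate 1 and, with more depth, 0.121 TPM in replicate 2. Mesenchyme and epithelium of the face were present in both pools, with Msx1 at 336 and 325 TPM, Prrx1 at 154 and 148 TPM and the epithelial gene Epcam at 58.3 and 58.6 TPM in replicates 1 and 2. Alx1, a frontonasal mesenchyme gene, stood at 91.9 TPM in replicate 1 and 134 TPM in replicate 2. The defining markers of the inner ear were far lower than these, apart from Oc90.

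Oc90 has 5 annotated transcripts on the minus strand of chromosome 15 (chr15:65876053-65912397, GRCm38), which differ in their ends and in which exons they hold. Among the differences are 2 internal exons that are coding in Oc90-201 and skipped in other transcripts, shown because the results for transcripts below are grouped by them. The first exon is 51 bases long (the length of 17 codons, chr15:65888096-65888146, minus strand) and lies in Oc90-201, Oc90-204 and Oc90-205. The second exon is 48 bases long (the length of 16 codons, chr15:65887582-65887629, minus strand) and lies in Oc90-201 alone. Both are printed from the transcript sequence of Oc90-201 in GENCODE M21, with the exon in capitals and 20 bases of the neighbouring exon in lower case on each side.
Exon of 51 bases: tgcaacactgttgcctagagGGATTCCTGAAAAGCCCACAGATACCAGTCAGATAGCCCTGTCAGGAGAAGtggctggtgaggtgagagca
Exon of 48 bases: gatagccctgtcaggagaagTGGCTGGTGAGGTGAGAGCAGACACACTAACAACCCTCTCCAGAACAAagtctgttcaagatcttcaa
The exons follow each other directly in Oc90-201, so the lower-case end of the first sequence is the start of the second exon.

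Levels of the members were unequal. Oc90 alone held 78.1% of their summed TPM in replicate 1 (55.63 TPM in all) and 69.8% in replicate 2 (27.13 TPM). In order of mean TPM the genes ran Oc90, Fbxo2, Lmx1a, Gbx2, Otol1, Tecta, Hmx2, Otog, Otoa and Hmx3. The lower library of Oc90 lay above the higher library of Fbxo2, with means 8.59-fold apart, and the lower library of Gbx2 lay above the higher library of Otol1, with means 4.87-fold apart. Hmx2 and Otog were also separated, but by a 1.35-fold step between values of 8 to 58 counts. All other neighbours in the order overlapped between libraries. The first 4 genes exceeded 1 TPM in both libraries and the other 6 stayed under 1 TPM in both.

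**Figure D1:**
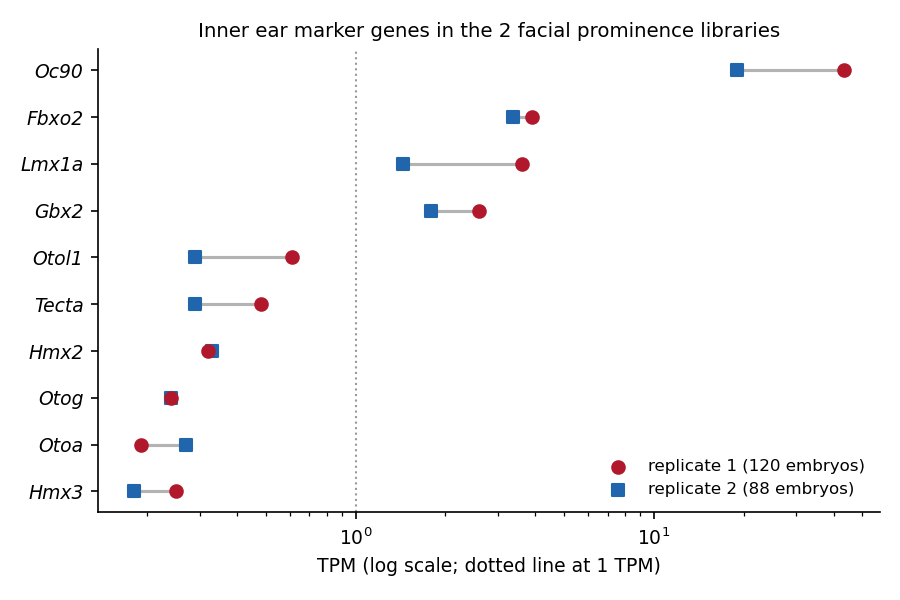
TPM (log axis) of the 10 inner ear marker genes, with a circle for replicate 1 and a square for replicate 2, joined by a line. Oc90 lies at 43.44 and 18.94 TPM, 3 genes lie between 1 and 4 TPM, and 6 lie below 1 TPM in both libraries.

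Oc90 encodes otoconin-90, the main matrix protein of otoconia. It was at 43.44 TPM (1099 expected counts) in replicate 1 and 18.94 TPM (651 counts) in replicate 2, a mean of 31.2 ± 17.3 TPM (SD, n = 2). Replicate 1 was the high library even though it was the shallower one. Among protein-coding genes Oc90 ranked 3957 by TPM in replicate 1 and 7077 in replicate 2. The difference, log2 of (TPM + 0.1) in replicate 2 over replicate 1, was -1.19, and negative values throughout stand for a higher level in replicate 1. Scaled to the total count of each library, replicate 1 had 2.42 times the Oc90 counts of replicate 2, with an exact 95% conditional binomial (Clopper-Pearson) interval of 2.19 to 2.67. That interval and those below cover counting error only, with each read taken as a separate molecule. They are too narrow if reads repeat a molecule, which was not checked, and they say nothing of how much pools of embryos vary. The bounds of TPM that accompany the deposited values, whose level is not given, ran from 38.8 to 45.8 in replicate 1 and from 16.8 to 20.9 in replicate 2, and did not overlap.

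Otol1 (chr3:70007613-70028708, plus strand) encodes otolin, a collagen-like protein that forms the scaffold of otoconia together with otoconin-90. It was at 0.61 TPM (22 counts) in replicate 1 and 0.29 TPM (15 counts) in replicate 2, a mean of 0.450 ± 0.226 TPM (SD, n = 2). The log2 difference was -0.86, and the depth-scaled count ratio of replicate 1 to replicate 2 was 2.10 with a counting interval of 1.04 to 4.36. The TPM values themselves were 2.10-fold apart, and the added 0.1 TPM, large beside a level this low, brought the log2 difference short of 2-fold. Otol1 lay on the same side as Oc90, but so few counts leave its ratio loosely bounded.

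The remaining gel proteins were scarce. Tecta (chr9:42329619-42399929, minus strand), which encodes alpha-tectorin of the tectorial membrane, was at 0.48 TPM (56 counts) in replicate 1 and 0.29 TPM (44 counts) in replicate 2, with a log2 difference of -0.57 and a depth-scaled count ratio of 1.82 (1.21 to 2.77). Otog (chr7:46240987-46311434, plus strand) encodes otogelin, a glycoprotein of all the acellular membranes of the ear, and was at 0.24 TPM in both libraries (41 and 58 counts). Its count ratio of 1.01 had an interval of 0.662 to 1.54, which leaves out a ratio as large as that of Oc90. Otoa (chr7:121081650-121163097, plus strand) encodes otoancorin, which attaches the gels to the epithelium beneath, and was at 0.19 TPM (11 counts) in replicate 1 and 0.27 TPM (19 counts) in replicate 2. The Otoa count ratio was 0.830 (0.357 to 1.83). Its deposited bounds, 0.262 to 1.44 in replicate 1 and 0.304 to 1.17 in replicate 2, lay above its own TPM, so its level is uncertain. Among the 4 scarce gel genes, by TPM, Otol1 and Tecta were higher in replicate 1, Otog was equal and Otoa was higher in replicate 2. The order for Otoa is not settled: its interval includes equality, and by posterior mean TPM its log2 difference was -0.19.

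Fbxo2 (chr4:148160621-148166424, plus strand) encodes the substrate-binding subunit of a ubiquitin ligase that recognises glycoproteins, and is enriched in inner ear epithelium. It was the second most abundant member, at 3.90 TPM (81 counts) in replicate 1 and 3.36 TPM (99 counts) in replicate 2, a mean of 3.63 ± 0.382 TPM (SD, n = 2). The log2 difference was -0.21 and the count ratio 1.17 (0.863 to 1.59), an interval that includes equality and leaves out 2-fold. The values of Oc90 and Fbxo2 thus did not move by the same amount between the pools.

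Lmx1a (chr1:167689237-167848741, plus strand) encodes a LIM-homeodomain factor of the nonsensory otic epithelium and of the roof plate of the neural tube. It was at 3.61 TPM (205 counts) in replicate 1 and 1.44 TPM (116 counts) in replicate 2, a mean of 2.53 ± 1.53 TPM (SD, n = 2). The log2 difference was -1.27, as large as that of Oc90, and the count ratio was 2.53 (2.01 to 3.21). The deposited bounds, 3.08 to 4.05 and 1.18 to 1.70 TPM, did not overlap. With a pseudocount of 1 TPM in place of 0.1 the log2 difference of Lmx1a was -0.92, short of 2-fold.

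Gbx2 (chr1:89927956-89931179, minus strand) encodes a homeobox factor needed for the endolymphatic duct and for the midbrain-hindbrain boundary. It was at 2.59 TPM (79.8 counts) in replicate 1 and 1.79 TPM (74.37 counts) in replicate 2, with a log2 difference of -0.51 and a count ratio of 1.55 (1.12 to 2.15). Hmx2 (chr7:131548773-131558014, plus strand) and Hmx3 (chr7:131542867-131544925, plus strand) are adjacent homeobox genes of the vestibular system and hypothalamus, 3848 bases apart. Hmx2 was at 0.32 TPM (8 counts) and 0.33 TPM (12 counts) in replicates 1 and 2, a count ratio of 0.955 (0.339 to 2.54). Hmx3 was at 0.25 and 0.18 TPM on 6 counts in each library, with a count ratio of 1.43 (0.383 to 5.36). A difference of the size of that of Oc90 was not detectable for Hmx3 at this depth, while the highest ratio allowed by counting for Hmx2 was just above it.

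**Figure D2:**
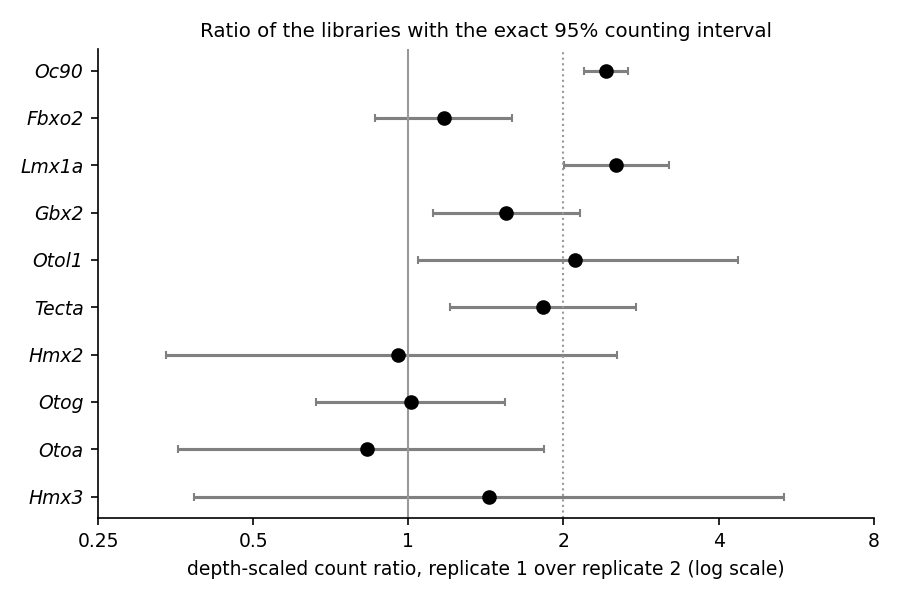
Ratio of depth-scaled expected counts, replicate 1 over replicate 2 (log axis), for each of the 10 genes, with the exact 95% interval for counting error as a bar, a solid line at equality and a dotted line at 2-fold. Oc90 (2.42) and Lmx1a (2.53) have their whole interval above 2-fold, and the intervals of Fbxo2, Hmx2, Otog, Otoa and Hmx3 include 1.

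Of the 10 genes, 9 had at least 10 expected counts in a library, and Hmx3 did not. A gene is counted as past 2-fold, here and in the lists, where its log2 difference of TPM + 0.1 was over 1 or under -1. By that limit 2 of the 9 were past 2-fold, Oc90 and Lmx1a, both higher in replicate 1, and none was past 2-fold higher in replicate 2. The same limit was passed, higher in replicate 1, by 121 of 15318 protein-coding genes (0.79%), and higher in replicate 2 by 175 (1.14%). At a mean of 1 TPM or more, the range of Oc90 and Lmx1a, 0.341% of genes were past 2-fold and higher in replicate 1, and under 1 TPM, where the 5 other gel and Hmx genes with 10 counts lay, 4.1% were. Since Oc90 was selected on this contrast, nothing is read from its part in the count, and without it 1 of 8 passed. Bounds that did not overlap, with replicate 1 higher, were found for the same 2 genes and for 3.95% of protein-coding genes. Otol1, at -0.86, was the gene nearest to the limit among those that did not pass it. With no pseudocount, an alternative chosen after seeing the data, Otol1 passed too, making 3 of 9, beside 1.32% of protein-coding genes that were past 2-fold and higher in replicate 1 by TPM itself.

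By sign, 6 of the 9 genes were lower in replicate 2, 2 were higher and Otog was equal. Without Oc90, which was picked on this contrast, 5 of 8 were lower and 2 higher. Of 15318 protein-coding genes, 7353 were lower in replicate 2 and 7873 higher. The 2 higher members were Hmx2, on 8 and 12 counts, and Otoa, whose sign changed with the measure used. The median log2 difference of the 9 was -0.51, and of the 8 without Oc90 -0.36, beside 0.0054 over all protein-coding genes with 10 counts. These counts describe 2 libraries, and the genes are not replicates of each other.

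**Figure D3:**
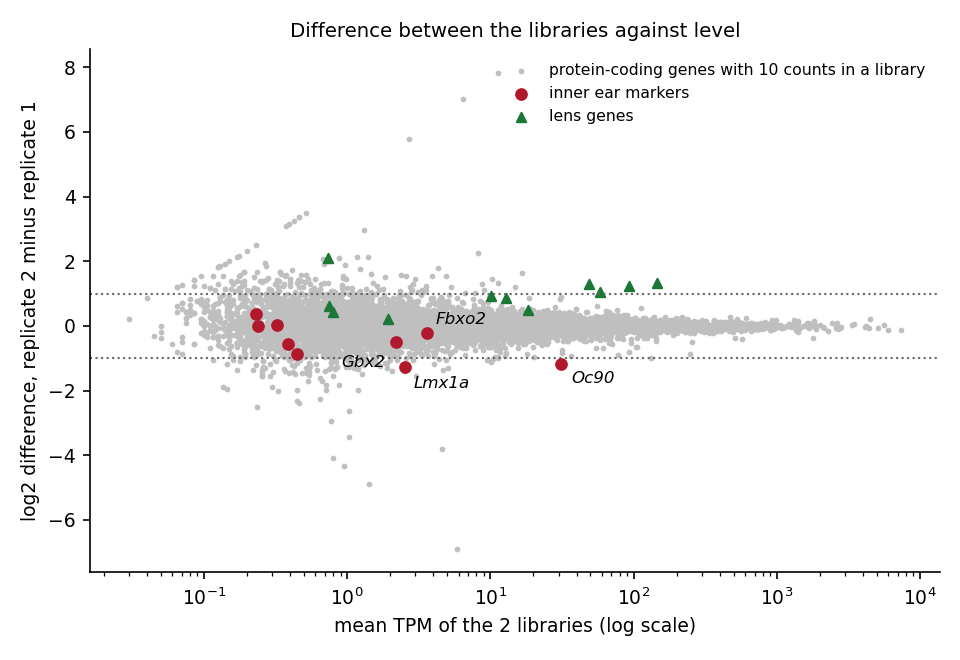
The log2 difference in TPM (replicate 2 minus replicate 1) against mean TPM (log axis) for 15318 protein-coding genes (grey), the 9 inner ear markers with 10 counts (circles, named where the mean exceeds 1 TPM) and 11 lens genes (triangles), with dotted lines at 2-fold. The grey cloud narrows as the level increases, Oc90 and Lmx1a lie at or below its lower edge at their levels, and the lens genes lie above 0.

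Few genes at the level of Oc90 differed past 2-fold in either direction. Of 4919 protein-coding genes with a mean of 15.6 to 62.4 TPM, within 2-fold of that of Oc90, Oc90 was the 1 gene past 2-fold and higher in replicate 1, as a description of how it was picked. Another 3 were past 2-fold and higher in replicate 2, and those were Aldh1a1 (1.64), named after its value was seen, and the crystallin genes Crybb3 (1.30) and Crybb1 (1.04). The 5 genes closest to it in log2 difference within that group were B230307C23Rik (-0.96), Gna12 (-0.93), Axin1 (-0.87), Selenon (-0.85) and Pde7a (-0.74), likeness being measured over 2 libraries only. Gna12, a G protein subunit, was at 47.72 TPM in replicate 1 and 25.05 TPM in replicate 2, just short of 2-fold. Axin1, a scaffold of the beta-catenin destruction complex, was at 23.19 and 12.65 TPM in the same order.

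The genes beside Oc90 on chromosome 15 had no such difference. Efr3a, 2237 bases away on the opposite strand, was at 34.42 TPM in replicate 1 and 36.01 TPM in replicate 2, a log2 difference of 0.07. Hhla1, on the other side, had 0 counts in both libraries. Beside Lmx1a, the retinoid receptor gene Rxrg was at 11.3 and 11.53 TPM, and Gm20711 had 1 count in replicate 1 and 0 in replicate 2. Fbxo44, a paralog of Fbxo2 that starts 139 bases from it on the opposite strand, was at 19.58 and 16.22 TPM, a log2 difference of -0.27 next to -0.21 for Fbxo2.

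Other neighbours bear on how far a value belongs to its gene. D130058E05Rik overlaps Gbx2 on the opposite strand and was at 0.66 TPM (25.2 counts) in replicate 1 and 0.90 TPM (47.63 counts) in replicate 2. Gm47629 is an antisense gene inside Tecta without a row in the tables. Whether the libraries kept strand is not given in the sources used here, so reads of these overlapping pairs cannot be told apart. The Fgfr2 record spans Hmx2 and Hmx3 but has 0 exons inside either. Ush1c, which encodes a hair cell scaffold protein and lies 2484 bases from Otog, was at 2.15 and 2.30 TPM.

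The estimated TPM of the Oc90 transcripts differed between the libraries by unequal folds, and whether the folds differ beyond the error of the estimates was not tested. Oc90-201, with both internal exons shown above and 15 exons in all, was at 14.98 TPM in replicate 1 and 4.46 TPM in replicate 2, 3.36-fold apart. Its deposited bounds, 11.7 to 17.6 and 3.08 to 5.78 TPM, did not overlap. Oc90-205, with the 51-base exon only, was at 11.48 and 3.36 TPM, 3.42-fold apart, and its bounds, 7.71 to 15.5 and 0.731 to 6.31 TPM, did not overlap either. Oc90-202, which lacks both exons, was at 8.18 TPM in replicate 1 and 6.79 TPM in replicate 2, 1.20-fold apart, with bounds of 3.09 to 11.7 and 3.38 to 8.59 TPM that overlapped. Oc90-202 had the highest estimate in replicate 2 (35.8% of the gene, against 18.8% in replicate 1), and Oc90-201 had it in replicate 1 (34.5%, against 23.5% in replicate 2). These ranks are not settled, because bounds also overlapped within each library. In replicate 2 those of Oc90-202 overlapped those of Oc90-201, and in replicate 1 those of Oc90-201 overlapped those of Oc90-205.

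The other 2 transcripts were less certain. Oc90-204, annotated as a processed transcript without a reading frame, was at 5.88 and 4.15 TPM in replicates 1 and 2. Oc90-203, with neither exon, was at 2.93 TPM in replicate 1 and 0.18 TPM in replicate 2, on 40.84 and 3.53 counts, with lower bounds of 0.0019 and 0. The bounds of both transcripts overlapped between libraries. Summed over transcripts, those with the 51-base exon were at 32.34 TPM in replicate 1 and 11.97 TPM in replicate 2, and those without it at 11.11 and 6.97 TPM. Their share was 74.5% in replicate 1 and 63.2% in replicate 2, and whether it differs between pools was not tested. Transcripts share most of their exons, so these values are estimates that divide common reads, not counts of reads across the exons.

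**Figure D4:**
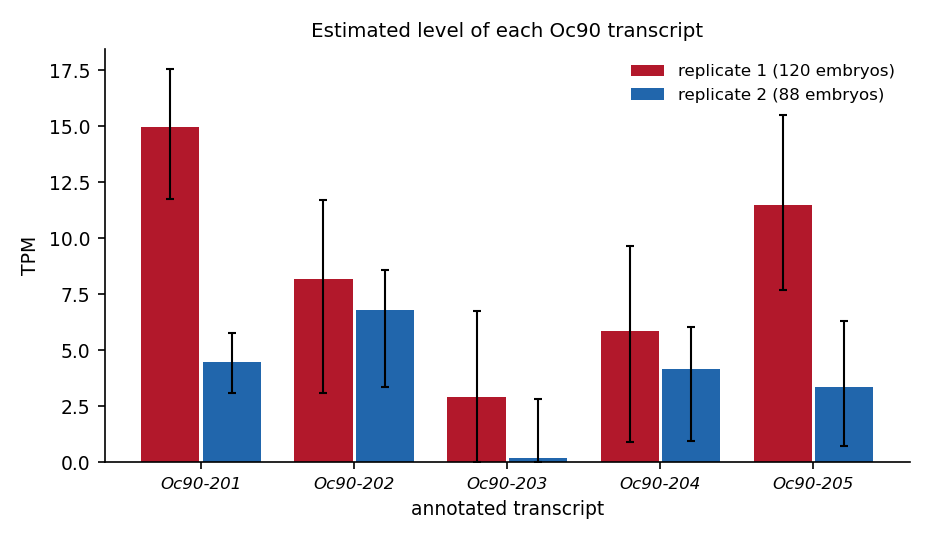
Estimated TPM of the 5 Oc90 transcripts in each library, as bars from 0, with the deposited lower and upper bounds as error bars. The bounds of the libraries are apart for Oc90-201 and Oc90-205 and overlap for Oc90-202, Oc90-203 and Oc90-204.

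Lmx1a came from 1 transcript, Lmx1a-201, with 99.7% of the gene in replicate 1 and 100% in replicate 2. Gbx2-201, the coding transcript, held 70.3% and 61.0% of Gbx2, and the rest was a transcript with a retained intron. Tecta-201 held 67.1% and 74.7% of Tecta. For Otoa the coding transcript Otoa-201 held 64.8% in replicate 1 and 23.8% in replicate 2, the remainder being Otoa-202, annotated as a target of nonsense-mediated decay, but these shares rest on 11 and 19 counts and were not tested.

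Start regions of 9 of the 10 genes, all but Oc90, were found among 32851 RefSeq promoter windows of 300 bases (GRCm38.p6, 250 bases before to 50 after a start), in 11 windows. CG pairs, which are dense at the starts of broadly used and developmental regulator genes, numbered 27 in Gbx2, 12 in Lmx1a, 21 in Fbxo2, 39 in Hmx3, and 2 and 22 in the windows of Hmx2. The gel genes had 0 (Otog), 2 (Otol1), 5 (Otoa), and 5 and 4 (Tecta), beside a median of 7 over all windows. All 5 windows of gel genes were thus below that median, and 5 of the 6 windows of the regulators and Fbxo2 were above it. The part from 250 to 51 bases before the start is shown for 1 gene of each kind, with CG pairs in capitals: Otol1 (chr3:70007363-70007562, plus strand) and Gbx2 (chr1:89931227-89931426, minus strand), of which the first has 1 such pair and the second 16.
Otol1: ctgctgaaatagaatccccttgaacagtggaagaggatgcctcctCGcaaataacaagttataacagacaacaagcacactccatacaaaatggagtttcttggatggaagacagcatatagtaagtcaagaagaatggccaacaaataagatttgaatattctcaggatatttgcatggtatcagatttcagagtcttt
Gbx2: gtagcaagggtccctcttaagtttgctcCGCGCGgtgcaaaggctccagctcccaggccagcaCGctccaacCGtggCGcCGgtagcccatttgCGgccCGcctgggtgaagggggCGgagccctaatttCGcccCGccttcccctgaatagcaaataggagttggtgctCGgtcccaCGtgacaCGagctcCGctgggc
The letters TAATTA, a core bound by many homeodomain factors, were searched on both strands and found in 0 of the 11 windows and 5.29% of all windows. The letters TATAAA, on both strands, were in 1 of the 11, a window of Hmx2, and in 13.6% of all.

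Whether other otic genes differed in the way of Oc90 was asked over lists of genes. Among 19 regulators of the otic placode and vesicle, all with 10 counts, 0 were past 2-fold in either direction, and the median log2 difference was 0.06. The most abundant, which also act in the face, included Dlx5 (84.38 and 57.08 TPM in replicates 1 and 2) and Tbx3 (41.85 and 46.17 TPM). Pax2 and Pax8, the paired-box genes of the otic placode, were chosen here after their values were seen, and were at 0.46 and 0.78 TPM and at 0.22 and 0.24 TPM.

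Among 13 other genes of the otolith, the tectorial membrane and the endolymph, 8 had 10 counts and 0 of the 8 were past 2-fold. Their median was -0.46, with 6 lower in replicate 2 and 2 higher. This tally depends on the minimum count. Of the genes left out by it, Nox3 was lower in replicate 2, and Otos, Otop1, Ceacam16 and Strc were higher. Slc26a4 and Tectb, named after their values were seen, were higher in replicate 1 on few counts. Both reached 10 counts only in that library, so nothing is read from their ratios or from their part in the tally. Slc26a4, an anion exchanger of the endolymphatic duct, was at 0.23 TPM (12 counts) and 0.08 TPM (6 counts), with a log2 difference of -0.87 and a count ratio of 2.87 (0.996 to 9.31), and by TPM itself it was past 2-fold. Tectb, which encodes beta-tectorin, was at 0.22 TPM (10 counts) and 0.12 TPM (4 counts), with a log2 difference of -0.54 and a count ratio of 3.58 (1.03 to 15.7). Coch and Otogl, also named after their values were seen, had intervals that include equality. Coch was at 3.06 TPM (129 counts) and 3.10 TPM (184 counts), a count ratio of 1.00 (0.796 to 1.27). Otogl was at 0.19 TPM (23 counts) and 0.16 TPM (28 counts), a count ratio of 1.18 (0.648 to 2.12). Otor, which encodes otoraplin, a secreted protein of the cochlea and of cartilage, was at 27.61 TPM in replicate 1 and 18.47 TPM in replicate 2 (log2 difference -0.58, count ratio 1.51 with a counting interval of 1.31 to 1.74). Noxo1, a subunit of the NADPH oxidase complex needed to form otoconia, was at 4.84 and 2.48 TPM (-0.94) on 102.45 and 103.97 counts, a count ratio of 1.41 (1.06 to 1.87). The TPM difference of Noxo1 was larger than its count difference because its estimated effective length was 1211 bases in replicate 1 and 1691 in replicate 2. Cyba, a subunit of the same complex that is used in many tissues, was at 69.92 and 70.66 TPM. The catalytic subunit, Nox3, and the otoconial channel gene Otop1, named after their values were seen, were under 10 counts in both libraries.

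Among 14 prosensory and hair cell genes, 11 had 10 counts, 0 were past 2-fold and higher in replicate 1, and 1 was past 2-fold and higher in replicate 2. That gene was Atoh1, the factor that starts hair cell formation and also acts in the hindbrain and in touch receptors of the skin, at 0.20 TPM (7 counts) in replicate 1 and 0.71 TPM (35 counts) in replicate 2. Pou4f3, a hair cell factor named after its values were seen, lay on the other side, at 1.22 TPM (48 counts) in replicate 1 and 0.61 TPM (34 counts) in replicate 2. Its log2 difference of -0.89 was short of the limit, its count ratio was 2.02 (1.28 to 3.24), and its deposited bounds did not overlap. Otof, also named after its values were seen, was higher in replicate 2, at 0.22 TPM (26 counts) in replicate 1 and 0.50 TPM (81 counts) in replicate 2. The log2 difference of Otof was 0.91 and its count ratio 0.460 (0.284 to 0.723). By sign, 3 of the 11 genes were lower in replicate 2 and 8 were higher, with a median of 0.11. Jag1, Myo7a and Lfng led the list at 26.48 and 25.02, 11.37 and 13.16, and 10.62 and 10.78 TPM. Among 9 genes of cranial ganglion neurons, 0 were past 2-fold, with Isl1 at 45.96 and 36.92 TPM and Eya1 at 35.32 and 36.91 TPM.

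**Figure D5:**
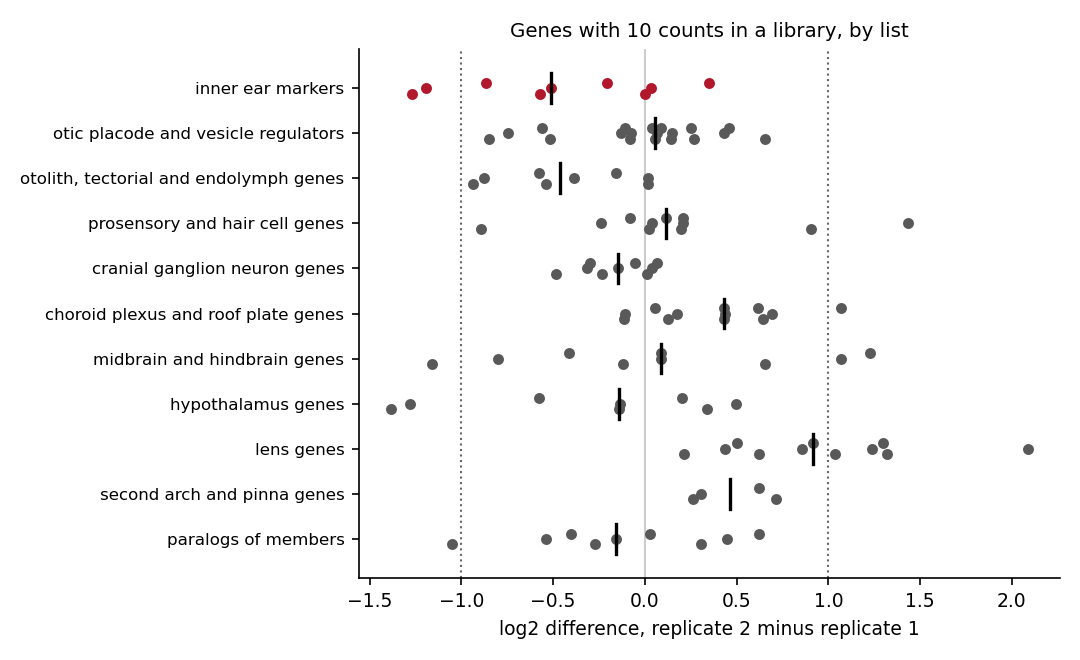
The log2 difference in TPM (replicate 2 minus replicate 1) of every gene with 10 counts in a library, by list, with a black bar at the median of each list and dotted lines at 2-fold. The inner ear markers have a median of -0.51, the regulators of the otic placode 0.06 and the lens genes 0.92, and a gene in several lists is drawn in each.

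Brain tissues that express the same homeobox genes were read beside them, over whole lists. Of 12 choroid plexus and roof plate genes, all with 10 counts, 0 were past 2-fold and higher in replicate 1 and 1 was past 2-fold and higher in replicate 2. The summed level of the list was 54.38 TPM in replicate 1 and 64.92 TPM in replicate 2, and its median difference was 0.43. By sign, 2 of the 12 were lower in replicate 2, as Lmx1a was, and 10 were higher. Those 2, named after their values were seen, were Ttr at 5.67 and 5.26 TPM and Clic6 at 3.61 and 3.33 TPM, each with a log2 difference of -0.11. Enpp2, Rspo1 and Otx2 led the list at 27.77 and 31.4, 5.98 and 9.40, and 6.23 and 8.45 TPM. Wnt1, a roof plate ligand, was the gene past 2-fold, on 4 and 18 counts.

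Of 12 midbrain and hindbrain genes, 9 had 10 counts, and the list summed to 25.17 and 22.26 TPM. Fgf17, a growth factor of the midbrain-hindbrain boundary that is also made elsewhere in the head, was past 2-fold and higher in replicate 1, at 2.67 and 1.14 TPM (count ratio 2.36, counting interval 1.61 to 3.49). Wnt1, which is in this list too, was past 2-fold and higher in replicate 2. Fgf8 was at 5.05 and 2.86 TPM. The defining midbrain gene En2 had 1 count in replicate 1 and 0 in replicate 2.

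Of 8 hypothalamus genes, all with 10 counts, 2 were past 2-fold and higher in replicate 1 and 0 were higher in replicate 2, with the list summing to 35.27 and 34.04 TPM. Nkx2-1, a homeobox gene of the ventral forebrain and thyroid, was at 3.66 TPM (144 counts) in replicate 1 and 1.34 TPM (73 counts) in replicate 2, a count ratio of 2.83 (2.12 to 3.80). Otp, a homeobox gene of neuroendocrine neurons, was at 1.14 and 0.41 TPM, a ratio of 2.81 (1.72 to 4.70). Rax, Six3 and Pomc were at 9.42 and 10.86, 8.13 and 7.37, and 7.00 and 6.35 TPM. Differences of the size of that of Oc90 were therefore also present in single genes of another list, and their part in the result for Oc90 was not tested.

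The lens genes, made in another placode of the head, lay on the opposite side. Of 12, 11 had 10 counts, 5 were past 2-fold and higher in replicate 2 and 0 higher in replicate 1, and the list summed to 239.34 and 542.23 TPM in replicates 1 and 2, with a median of 0.92. Cryaa was at 82.94 and 206.76 TPM, Cryba1 at 55.48 and 130.87 TPM, Crybb1 at 38.31 and 78.69 TPM and Crybb3 at 28.22 and 69.49 TPM, all 4 encoding crystallins, and the lens factor Foxe3 was at 0.22 TPM (3 counts) and 1.26 TPM (24 counts). How much surrounding tissue each dissection held is not given in the sources used here.

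Of 4 genes of the second arch and outer ear, 0 were past 2-fold and all 4 were higher in replicate 2, with a median of 0.47, and Hoxa2, Hmx1 and Bmp5 were at 12.95 and 15.53, 9.34 and 14.45, and 5.31 and 6.59 TPM. Of 10 paralogs of the members, 9 had 10 counts and 1 was past 2-fold, Gbx1, on 11 counts in replicate 1 and 3 in replicate 2 (count ratio 5.25, counting interval 1.39 to 29.3). Gbx1 reached 10 counts only in the library where it was higher, so nothing is read from that ratio or its interval. Hmx1, a paralog of Hmx2 and Hmx3 used in the eye and outer ear, exceeded both in each library. Fbxo44 and Fbxo17 exceeded Fbxo2 in each library, Fbxo17 being at 13.12 and 16.25 TPM. Over the 103 distinct genes of all lists, some of them under 10 counts and so not callable, 4 were past 2-fold and higher in replicate 1. Another 8 were past 2-fold and higher in replicate 2, and 5 of those were lens genes. Gbx1 on the side of replicate 1, and Wnt1, Atoh1 and Foxe3 on the side of replicate 2, reached 10 counts only in their higher library. Of protein-coding genes with 10 counts, 0.79% and 1.14% passed in the same directions.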

How the data were processed

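The 2 libraries were made from 10 ng of total RNA over 200 bases in size, per the labels. Reads were processed on mm10 with GENCODE M4, per the submitters' processing notes; no aligner, quantifier or strand setting is given in the sources used here. The authors deposited expected counts (estimated counts, not whole where reads are shared), TPM, FPKM, the percent of a gene taken by each transcript, lengths, and bounds of TPM, per the file headers. Names and coordinates, 1-based, came from GENCODE M21 on the same build, which held 42462 of 43346 mouse IDs, and promoters from RefSeq.

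From these, log2 ratios of TPM with a pseudocount of 0.1 were computed; 2-fold means over 1 or under -1 with 10 expected counts in a library. Count ratios used Clopper-Pearson intervals at 95%. The calculation was checked on simulated counts with known changes, which does not measure how pools vary. With 1 group of 2 libraries, no p-value was computed. Members and lists were chosen with earlier results of these data known. Named genes were all members, the 3 highest of each list by mean TPM and each past 2-fold, neighbours of members, and the 5 genes closest to Oc90; of the neighbours, those without a bearing on a member are left out. Some list genes that the rule names are not reported here. Alternatives covered the pseudocount, the minimum, posterior mean TPM, the deposited FPKM, depth-scaled counts, spike-ins, TMM factors (edgeR 4.0.16) and DESeq2 1.42.0 size factors on rounded counts. Python 3.11.15, pandas 2.3.3, scipy 1.17.1 and R 4.3.3 were used.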

Additional observations from a re-analysis of the deposited data

How the results depend on the processing

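The log2 difference of Oc90 lay between -1.27 and -1.16 over 9 alternatives of scale and pseudocount. With a pseudocount of 1 TPM, members past 2-fold and higher in replicate 1 numbered 1 in place of 2, since Lmx1a came to -0.92, and list genes past 2-fold numbered 0 higher in replicate 1 in place of 4 and 4 higher in replicate 2 in place of 8; a larger pseudocount shrinks the differences of low genes by construction. With a pseudocount of 0.01 TPM, Otol1 reached -1.05 and 3 members passed, as they did with none (chosen after seeing the data), where list genes numbered 5 higher in replicate 1 and 10 higher in replicate 2. Over the same alternatives Otol1 ranged from -1.07 to -0.32, Tecta from -0.81 to -0.20 and Otoa from -0.19 to 0.51, so the sign of Otoa is not fixed; its mean was 0.745 TPM by the deposited posterior mean and 0.230 by TPM. The median over all protein-coding genes stayed between -0.0083 and 0.016. No paired analysis was possible because there was 1 group. A difference needs both libraries; leaving out either leaves the level of the other, 18.94 or 43.44 TPM for Oc90. For the 6 genes under 1 TPM, 6 to 58 counts a library limit what can be seen.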
